A study of Mus musculus with 16 samples.

Results

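Amino acid transporters move amino acids across cell membranes, and 37 genes of 6 solute carrier families were followed here through the hypothalamus of mice on 8 diets. They were chosen by gene name from a table of 47069 genes and comprised 5 genes of the Slc1 family, 7 of Slc6, 11 of Slc7 with its partner Slc3a2, 2 of Slc36, 10 of Slc38 and 2 of Slc43. All 37 names were found, and 35 of the genes had enough reads to be tested. The mice were C57BL/6N, a common inbred line, and ate diets with 1%, 2.5%, 5% or 20% of energy as protein, each at 60% or 20% of energy as fat. Each diet had 2 RNA-seq libraries, so every protein level had 4 libraries and every fat level 8, and the series asked how dietary protein at fixed fat changes hypothalamic gene expression. The labels used here give no ages. Nor do they tie the 2 libraries of a diet to different mice, so a p-value reflects the spread among the libraries alone, and that spread may be technical.

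These carriers work in a chain. Slc1 proteins clear glutamate and exchange small neutral amino acids, Slc6 proteins take up GABA, glycine, taurine and proline with sodium, and Slc7 light chains pair with the Slc3a2 heavy chain to exchange large neutral, cationic and acidic amino acids. Slc38 proteins carry glutamine and other small neutral amino acids, Slc36 proteins do so with protons, and Slc43 proteins let large neutral amino acids diffuse down their gradient. Several of the listed genes, among them Slc6a17 of synaptic vesicles and Slc7a14, Slc38a7 and Slc38a9 of lysosomes, are better known from inner membranes than from the plasma membrane.

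Levels are CPM values, counts scaled to a common library total, and come from raw counts that totalled 17731242 to 18511818 per library. The 37 genes together took between 0.425% and 0.472% of those counts. All 12 hypothalamic markers were detected in every library, at a summed 759.5 to 1089 CPM at 1% protein and 865.3 to 1020 CPM at 20% protein. The sum hides changes in single markers. At 1% against 20% protein 2 rose (Npy and Agrp) and 3 fell (Pomc, Avp and Sim1), against 8.26% and 6.01% of all genes tested. Some libraries stood apart. Genes of the mitochondrial genome held 1.54% to 1.78% of counts in 3 of the 4 libraries at 1% protein, namely both at 60% fat and replicate 1 at 20% fat, against 2.19% to 3.20% in the other 13. In those 3 libraries longer genes also lay below their own 16-library mean more than shorter ones did. The Spearman correlation of that deviation with length, taken across genes, was -0.261 to -0.169 there, against -0.136 to 0.315 in the other 13. Replicate 2 of 20% fat with 1% protein, the other library at that protein level, had the highest mitochondrial share. It and replicate 2 of 20% fat with 2.5% protein carried more cortical neuron marker RNA, at 435.8 and 795.9 CPM summed. Thalamic markers summed to 944 to 1387 CPM at 1% protein and 739.4 to 877.1 CPM at 20% protein. Of the 8 thalamic markers 5 rose, against 8.26% of all genes tested. Their part in the results below was not tested.

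Per kilobase of exon, the highest level in each family belonged to Slc1a2 (84.0 CPM per kilobase), the main glutamate transporter of astrocytes, Slc6a17 (60.4), Slc3a2 (50.6), Slc38a10 (23.5), Slc36a1 (15.5) and Slc43a2 (9.73). Slc1a3, the other astrocytic glutamate transporter, reached 65.0 CPM per kilobase. Intronic reads may be in the counts while introns are not in this length. Close ranks, such as Slc38a10 above Slc38a1 (21.5), are therefore uncertain. Slc7a5, the light chain of the large neutral amino acid exchanger LAT1, was listed at 0 in every library, and Slc6a9, a glycine transporter, had 0 to 4 counts per library. Neither could be tested. The whole of Slc7a5 on chromosome 8 (121881150 to 121907694, GRCm38) lies within Gm20388, a coding gene annotated on the opposite strand, and 92.1% of the exon bases of Slc6a9 are shared with other genes on the opposite strand. Whether reads were counted by strand is not stated in the sources used here. The counts of both genes are therefore uncertain, and the zeros do not show that the genes were silent. Among the other genes, the largest shares of exon bases that also belong to another annotated gene were 66.3% in Slc1a1, 47.9% in Slc6a20a, 27.2% in Slc7a10 and 21.3% in Slc38a9.

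At 1% protein against 20% protein, 11 of the 35 genes passed the threshold of an adjusted p of 0.05, 5 higher and 6 lower. Among all 16646 genes tested, 14.3% passed, 8.26% higher and 6.01% lower. The lower genes were the cystine importer Slc7a11, the glutamine carrier Slc38a5, the cationic carrier Slc7a2, the glycine and D-serine exchanger Slc7a10, and Slc6a13 and Slc6a20a, which carry GABA and proline. The higher genes were the neutral amino acid exchanger Slc7a8, the glutamate transporter Slc1a3, the glutamine exchanger Slc1a5, the vesicular carrier Slc6a17 and the large neutral carrier Slc43a1. The median log2 change was 0.0141 over the 35 genes and 0.00346 over all genes, so the group as a whole was centred near 0. Libraries at 1% and 20% protein did not overlap for 5 genes on the higher side (Slc1a3, Slc6a17, Slc7a8, Slc36a4 and Slc43a1) and 5 on the lower side (Slc7a2, Slc7a3, Slc7a10, Slc7a11 and Slc38a5), against 7.4% and 6.35% of all genes. These totals include Slc43a1, whose counts at 20% protein did not exceed the filter minimum of 10. It could enter the test through the libraries where it was higher, so its part in these totals is uncertain.

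**Figure D1:**
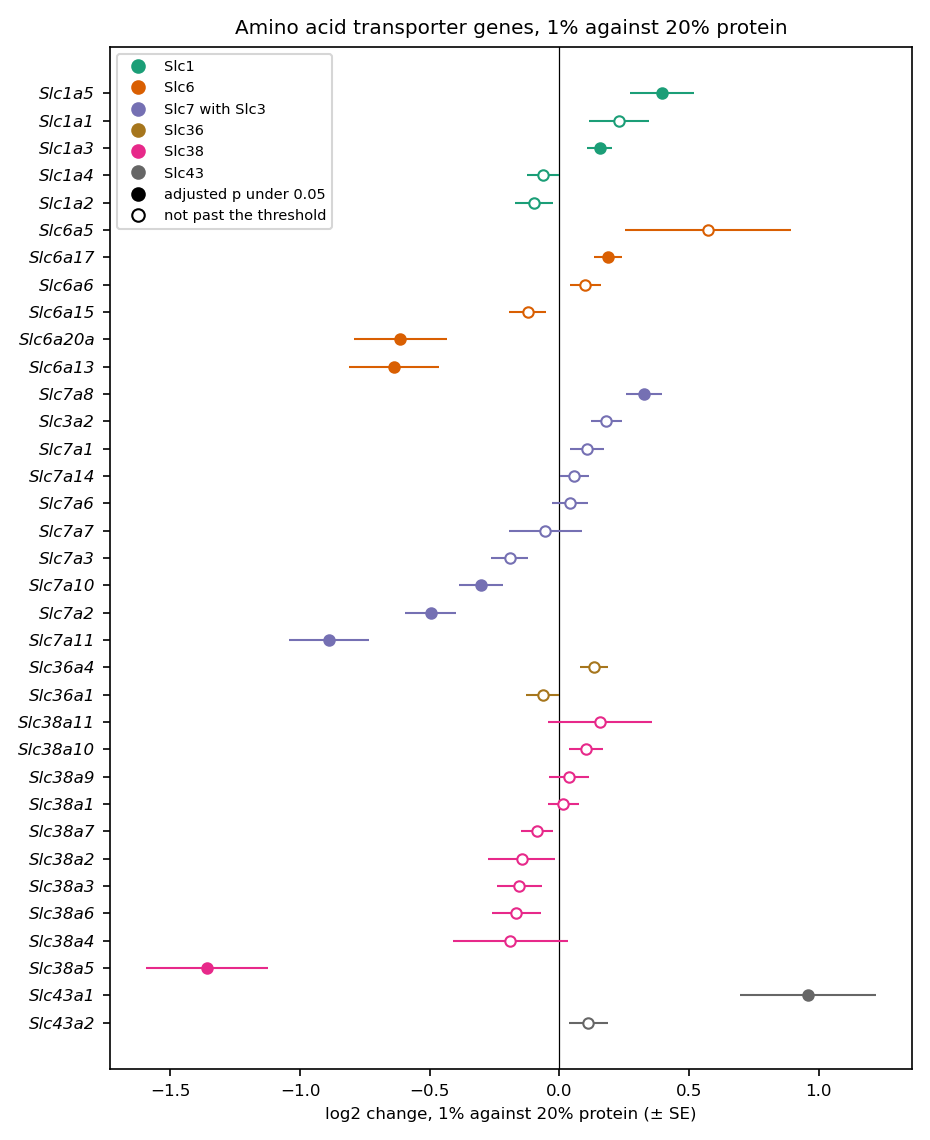
Log2 change at 1% against 20% protein (horizontal axis, ± SE, 4 libraries each) for the 35 genes tested, grouped and coloured by family. Filled points passed an adjusted p of 0.05: 5 lie right of 0 (higher at 1% protein), led by the scarce Slc43a1, and 6 lie left of it, led by the scarce Slc38a5 and by Slc7a11.

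In the Slc7 and Slc3 family, 1 of the 10 genes tested rose and 3 fell, against 8.26% and 6.01% of all genes. Slc7a11 imports cystine in exchange for glutamate and so supplies cysteine for glutathione. It lies on the minus strand of chromosome 3 (49892526 to 50443614). Slc7a11 had 22.7 and 23.0 CPM at 1% protein with 60% fat and 16.03 and 30.1 CPM at 1% protein with 20% fat, against 41.3, 45.2, 41.0 and 43.0 CPM at 20% protein. The 4 libraries at 1% protein all lay below the 4 at 20% protein, and replicate 2 of 20% fat with 1% protein came nearest to them. The gene fell to 0.540-fold, a log2 change of -0.89 ± 0.15 (SE; edgeR quasi-likelihood test, Benjamini-Hochberg adjusted p = 0.0018).

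Slc7a11 is a textbook target of the transcription factor ATF4, which is made when amino acids run short and binds C/EBP-ATF response elements. Its promoter is therefore printed beside that of Slc1a4, a carrier of serine and other small neutral amino acids that also holds a match and did not pass the test (log2 -0.06 ± 0.06, edgeR adjusted p = 0.51). Both are RefSeq promoters on GRCm38.p6, minus strand, read 5′ to 3′ over 250 bases before and 50 after the start: chr3:50443564-50443863 for Slc7a11 and chr11:20332664-20332963 for Slc1a4. Capitals mark matches to TGATGNAA on either strand.
Slc7a11: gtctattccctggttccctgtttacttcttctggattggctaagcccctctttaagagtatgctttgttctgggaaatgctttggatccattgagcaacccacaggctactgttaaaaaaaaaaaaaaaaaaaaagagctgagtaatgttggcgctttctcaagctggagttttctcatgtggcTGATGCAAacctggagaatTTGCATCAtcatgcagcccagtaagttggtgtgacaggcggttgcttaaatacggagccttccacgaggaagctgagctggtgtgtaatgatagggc
Slc1a4: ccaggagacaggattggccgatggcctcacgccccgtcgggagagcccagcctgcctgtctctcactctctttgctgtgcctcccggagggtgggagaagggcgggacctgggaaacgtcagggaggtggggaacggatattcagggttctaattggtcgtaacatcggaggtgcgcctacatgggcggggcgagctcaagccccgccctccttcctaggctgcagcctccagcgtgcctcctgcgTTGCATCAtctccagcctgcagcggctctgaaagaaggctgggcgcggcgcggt
The Slc7a11 promoter holds 2 matches, 1 on each strand, and that of Slc1a4 holds 1. A match is present in 3.97% of the 32851 promoters tabulated, and in 4 of 44 promoters of 29 of the carrier genes. These 4 belong to 3 genes, Slc7a11, Slc1a4 and Slc7a7. The 2 of Slc7a7 are overlapping windows that share a match, so that site is counted more than once. The antioxidant response element core TGACNNNGC is in 12.4% of all promoters and in 9 of the 44, with no match in the Slc7a11 window. A match is a description of these letters, not a shown binding site.

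Slc7a2 imports arginine and lysine and lies on chromosome 8 (40862396 to 40922308), where 7.0% of its exon bases are shared with Gm26584, a noncoding RNA gene with 0 counts. Slc7a2 had 19.7, 18.6, 16.6 and 24.6 CPM at 1% protein, the first pair at 60% fat, against 28.7, 26.3, 27.5 and 29.8 CPM at 20% protein. The groups did not overlap, and replicate 2 of 20% fat with 1% protein was again nearest to the 20% protein libraries. Slc7a2 fell to 0.709-fold (log2 -0.50 ± 0.10, edgeR adjusted p = 0.0047). The other cationic carriers did not pass: Slc7a1 changed by log2 0.11 ± 0.07 (edgeR adjusted p = 0.28) and Slc7a3 by -0.19 ± 0.07 (edgeR adjusted p = 0.075).

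Slc7a8 is the light chain of the second large neutral amino acid exchanger, LAT2, and lies on chromosome 14 (54722209 to 54781946). Slc7a8 had 74.5, 86.8, 69.9 and 69.3 CPM at 1% protein, against 62.6, 60.3, 57.4 and 59.1 CPM at 20% protein. Every library at 1% protein lay above every library at 20% protein, and the highest was replicate 2 at 60% fat. Slc7a8 rose 1.25-fold (log2 0.33 ± 0.07, edgeR adjusted p = 0.0074). Its heavy chain Slc3a2 had 211, 218, 190 and 171 CPM at 1% protein, against 170, 177, 184 and 164 CPM at 20% protein, so the groups overlapped through replicate 2 of 20% fat with 1% protein. Its log2 change of 0.18 ± 0.06 did not pass (edgeR adjusted p = 0.053).

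Slc7a10 exchanges glycine, L-serine and D-serine. Slc7a10 had 48.0, 45.1, 42.7 and 32.6 CPM at 1% protein, against 48.7, 55.0, 54.2 and 49.1 CPM at 20% protein. The groups stood apart by a narrow margin, and the lowest value was replicate 2 of 20% fat with 1% protein, the library that was nearest to 20% protein for Slc7a11 and Slc7a2. Slc7a10 fell to 0.810-fold (log2 -0.30 ± 0.09, edgeR adjusted p = 0.028). Its exons overlap those of Lrp3 on the opposite strand, which had 46207 counts in all libraries together, so this value is uncertain. Slc7a6, Slc7a7 and Slc7a14 ranged from log2 -0.05 to 0.06 and did not pass.

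**Figure D2:**
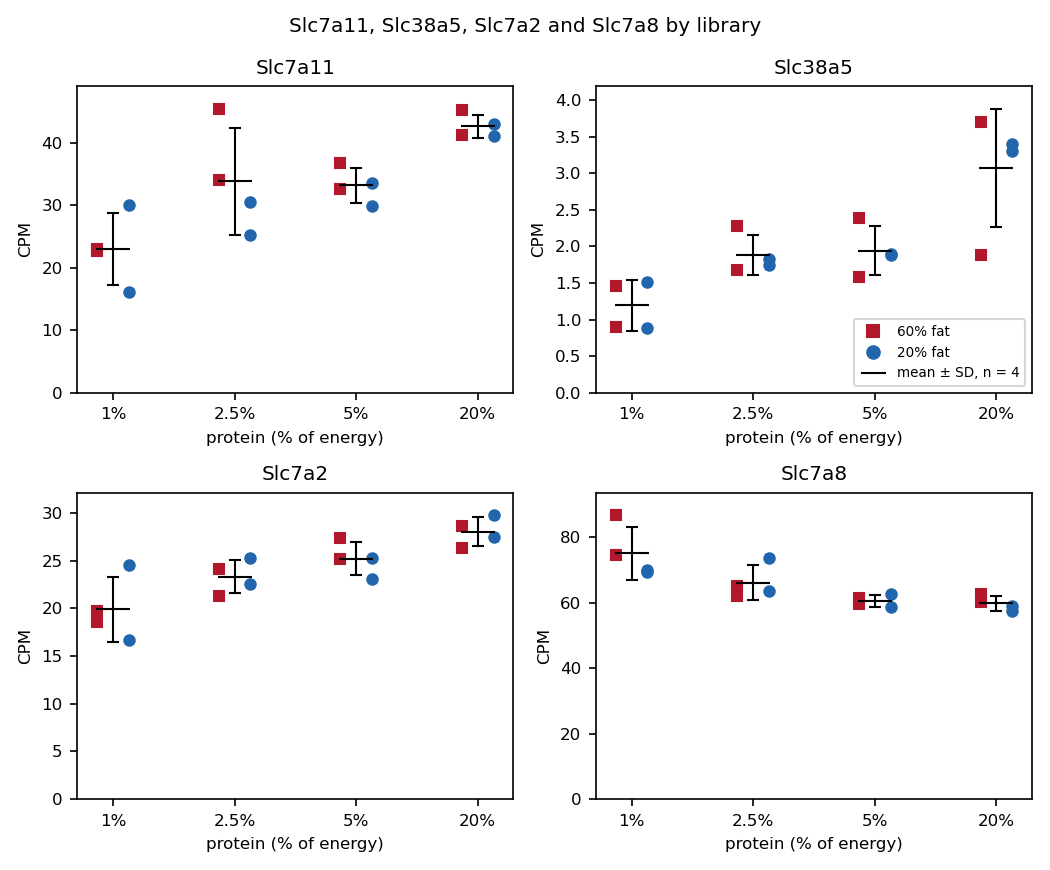
CPM (vertical axis, from 0) of Slc7a11, Slc38a5, Slc7a2 and Slc7a8 in each library by dietary protein (horizontal axis); squares are 60% fat, circles 20% fat, and lines mark the mean ± SD of 4 libraries. Slc7a11 averaged 23.0 CPM at 1% protein and 42.6 at 20% protein, with 33.8 and 33.2 at 2.5% and 5% protein between them.

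In the Slc38 family, 1 of 10 genes passed, against 14.3% of all genes. Slc38a5, which carries glutamine, serine and glycine, lies on the X chromosome (8271133 to 8280179). It was scarce, with 16 to 28 counts per library at 1% protein and 35 to 68 at 20% protein. Slc38a5 had 1.46, 0.900, 0.885 and 1.52 CPM at 1% protein, against 1.88, 3.70, 3.41 and 3.31 CPM at 20% protein. The groups did not overlap, although replicate 1 of 60% fat with 20% protein lay close to the 1% protein libraries. Slc38a5 fell to 0.390-fold (log2 -1.36 ± 0.23, edgeR adjusted p = 0.0018). Slc38a2, the sodium-coupled neutral carrier known from cultured cells to rise in amino acid shortage, had 166, 177, 122 and 191 CPM at 1% protein, against 172, 174, 175 and 205 CPM at 20% protein. The groups overlapped, and its log2 change was -0.15 ± 0.13 (edgeR adjusted p = 0.45). Slc38a10, the most abundant of the family per kilobase, had 170, 162, 160 and 127 CPM at 1% protein, against 142, 148, 145 and 141 CPM at 20% protein. Only replicate 2 of 20% fat with 1% protein kept those groups from standing apart, and its log2 change was 0.10 ± 0.07 (edgeR adjusted p = 0.29). The other 7 genes, including the neuronal glutamine carrier Slc38a1 (log2 0.01 ± 0.06) and the glial one Slc38a3 (-0.15 ± 0.09), did not pass.

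Endothelial cells express Slc38a5, and most of their markers also fell at 1% protein. Of 9 endothelial markers tested, 8 fell at 1% against 20% protein, against 6.01% of all genes, with a median log2 change of -0.46. Their summed level was 176.2 to 198.4 CPM at 1% protein against 230.5 to 272.7 CPM at 20% protein. At 2.5% and 5% against 20% protein Slc38a5 changed by log2 -0.70 and -0.66, and neither change passed. The marker sum averaged 233.3, 252.4 and 250.8 CPM at 2.5%, 5% and 20% protein. In bulk tissue, fewer cells of a type and less RNA per cell cannot be told apart, and the part of these cells in the change of Slc38a5 was not tested.

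In the Slc6 family, 1 of 6 genes tested rose and 2 fell, against 8.26% and 6.01% of all genes. Slc6a13 takes up GABA and taurine and Slc6a20a takes up proline, and both are known from the meninges rather than from neurons. Slc6a13 had 9.23, 6.36, 8.18 and 14.4 CPM at 1% protein, against 12.7, 14.0, 16.4 and 16.1 CPM at 20% protein. Slc6a20a had 8.95, 7.03, 9.73 and 15.9 CPM at 1% protein, against 14.3, 15.0, 17.4 and 16.3 CPM at 20% protein. For both genes 3 libraries at 1% protein lay below all those at 20% protein, and replicate 2 of 20% fat with 1% protein lay among them. Slc6a13 fell to 0.642-fold (log2 -0.64 ± 0.17, edgeR adjusted p = 0.025) and Slc6a20a to 0.654-fold (log2 -0.61 ± 0.18, edgeR adjusted p = 0.034). Slc6a20a shares exon bases with Gm17120 and Ccr9, which had 7 and 200 counts in all libraries together.

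Meningeal fibroblast markers moved with these genes. Of the 10 listed, Ogn was at 0. At 1% against 20% protein 8 of the 9 tested fell, against 6.01% of all genes, with a median log2 change of -1.13. Their summed level was 90.2 to 161.1 CPM at 1% protein, 99.8 to 175.3 at 2.5%, 188 to 205.6 at 5% and 193 to 239 at 20%. The highest of the 1% protein libraries was replicate 2 of 20% fat, as it was for Slc6a13 and Slc6a20a. Igf2, the tested marker that did not pass (edgeR adjusted p = 0.056), averaged 69.85 CPM of the sum at 1% protein and 109.3 CPM at 20%. The whole span of Igf2 is shared with other annotated genes, among them the coding gene Gm49394, so the sum is uncertain. Slc7a11 is also expressed in the meninges as well as in astrocytes. The part of meningeal tissue in these changes was not tested. Of 7 choroid plexus markers tested, 1 rose (Ttr) and 6 did not pass, against 8.26% of all genes that rose. Their summed level was 52.6 to 262.7 CPM at 1% protein and 48.3 to 60.0 CPM at 20% protein. None of 6 microglial or 7 tanycyte and ependymal markers passed, and 2 of 8 oligodendrocyte markers fell, against 6.01% of all genes.

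**Figure D3:**
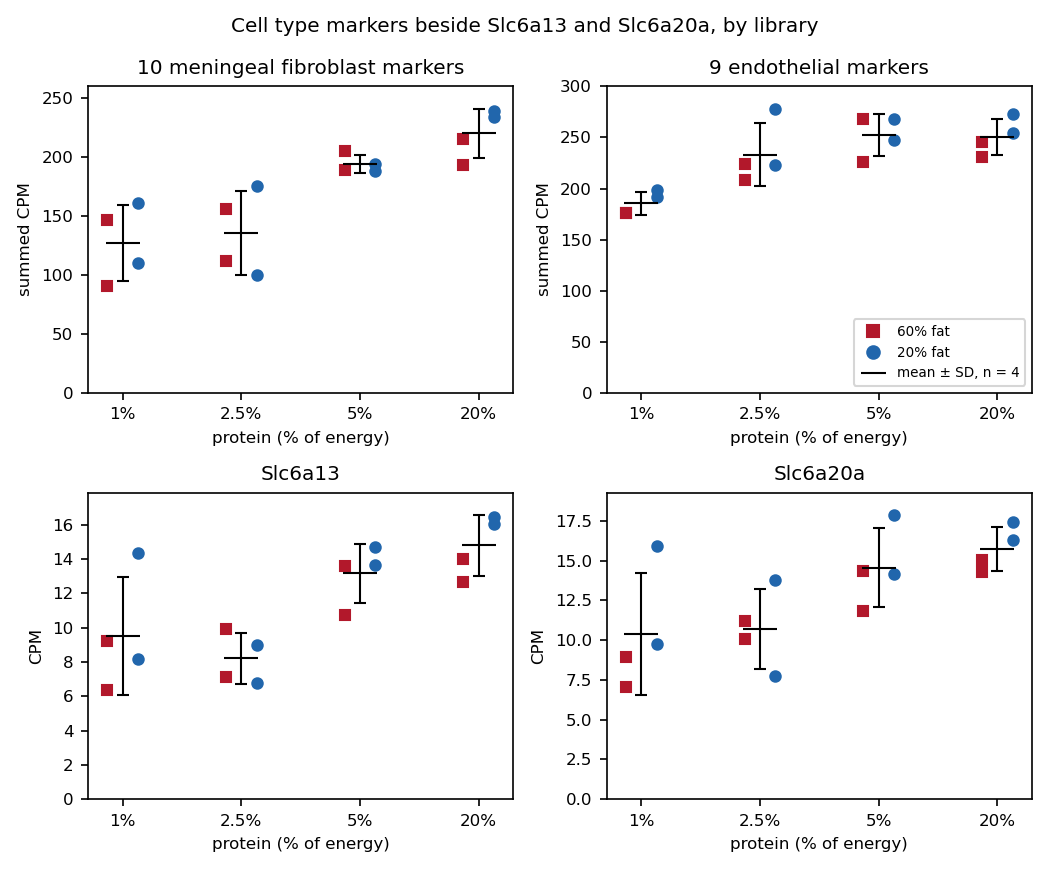
Summed CPM of 10 meningeal fibroblast and 9 endothelial markers (upper panels) and CPM of Slc6a13 and Slc6a20a (lower panels) per library by dietary protein; squares are 60% fat, circles 20% fat, and lines mark the mean ± SD of 4 libraries. The meningeal sum averaged 127 CPM at 1% protein and 220.4 CPM at 20% protein, of which Igf2 averaged 69.85 and 109.3 CPM. Slc6a13 averaged 9.54 and 14.8 CPM at those levels.

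Slc6a17, a neutral amino acid carrier of synaptic vesicles, had 705, 730, 655 and 618 CPM at 1% protein, against 591, 609, 590 and 586 CPM at 20% protein. The groups did not overlap, and the 60% fat libraries were the highest. Slc6a17 rose 1.14-fold (log2 0.19 ± 0.05, edgeR adjusted p = 0.030). The taurine carrier Slc6a6 and the branched-chain amino acid carrier Slc6a15 changed by log2 0.10 ± 0.06 and -0.12 ± 0.07 and did not pass. Slc6a5, a glycine transporter of hindbrain and spinal neurons, averaged 0.803 CPM at 1% protein and 0.538 CPM at 20% protein and did not pass (log2 0.57 ± 0.32, edgeR adjusted p = 0.23).

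In the Slc1 family, 2 of 5 genes rose and none of the other 3 passed, against 8.26% of all genes that rose. Slc1a3 had 627, 563, 598 and 591 CPM at 1% protein, against 539, 545, 513 and 540 CPM at 20% protein. The groups did not overlap, and the change was small: Slc1a3 rose 1.11-fold (log2 0.16 ± 0.05, edgeR adjusted p = 0.042). Slc1a2 did not pass, with 1050, 1072, 923 and 1099 CPM at 1% protein, against 1162, 1045, 1023 and 1205 CPM at 20% protein (log2 -0.10 ± 0.07, edgeR adjusted p = 0.37). Both are astrocytic. Of 7 astrocyte markers tested 2 rose and 1 fell, against 8.26% and 6.01% of all genes. Their summed level was 2259 to 2646 CPM at 1% protein and 2109 to 2176 CPM at 20% protein. Gfap was listed at 0 in every library. Slc1a5, which exchanges glutamine, had 8.10, 7.26, 11.3 and 8.46 CPM at 1% protein, against 6.34, 5.71, 7.03 and 7.58 CPM at 20% protein. The groups overlapped, and replicate 1 of 20% fat with 1% protein was the highest. Slc1a5 rose 1.31-fold (log2 0.39 ± 0.12, edgeR adjusted p = 0.043).

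In the Slc43 family 1 of 2 genes rose, and in the Slc36 family neither passed, against 14.3% of all genes that passed. Slc43a1, a facilitative carrier of large neutral amino acids, had only 12 to 17 counts per library at 1% protein and 4 to 10 at 20% protein. Slc43a1 had 0.957, 0.788, 0.663 and 0.760 CPM at 1% protein, against 0.538, 0.217, 0.378 and 0.480 CPM at 20% protein. The groups did not overlap, and Slc43a1 rose 1.94-fold (log2 0.96 ± 0.26, edgeR adjusted p = 0.027). Its counts at 20% protein did not exceed the minimum of 10 set for the count filter. The call was lost without that filter, so it is uncertain. The more abundant Slc43a2 had 108, 105, 106 and 93.2 CPM at 1% protein, against 89.1, 95.4, 94.98 and 102 CPM at 20% protein (log2 0.11 ± 0.08, edgeR adjusted p = 0.32). Slc36a1, a proton-coupled carrier of glycine and proline, had 88.0, 97.0, 81.2 and 80.6 CPM at 1% protein, against 87.6, 90.6, 90.6 and 93.2 CPM at 20% protein (log2 -0.06 ± 0.06, edgeR adjusted p = 0.50). Slc36a4 had 101, 94.8, 103 and 98.7 CPM at 1% protein, against 91.9, 92.2, 83.5 and 94.3 CPM at 20% protein. Those groups stood apart, but the log2 change of 0.13 ± 0.05 did not pass (edgeR adjusted p = 0.10).

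Most calls were lost without the 3 libraries at 1% protein that were low in mitochondrial counts. Then 1 library is left at 1% protein and is assumed to vary like the other groups, and 2 genes passed, Slc7a3 and Slc7a10, both lower, against 2.37% of all genes. In that fit Slc7a11 changed by log2 -0.40, Slc38a5 by -1.04, Slc7a2 by -0.20 and Slc7a8 by 0.20, with edgeR adjusted p of 0.30, 0.17, 0.45 and 0.33. Slc6a13 and Slc6a20a changed by -0.12 and -0.08 there, Slc6a17 by 0.04, Slc1a3 by 0.15, Slc1a5 by 0.24 and Slc43a1 by 0.85, and none of these 6 passed. The 1% protein library kept in that fit, replicate 2 of 20% fat, carried cortical marker RNA (435.8 CPM summed). It also had the highest choroid plexus marker sum of all libraries, at 262.7 CPM. The part of its tissue content in the lost and kept calls was not tested. In the other 23 alternatives Slc7a11, Slc38a5, Slc7a2 and Slc7a8 stayed past the threshold, and each of the other 7 called genes lost its call in 5 or more. Without the libraries that carried cortical markers, 15 of 35 genes passed, with 34.8% of all genes called. The libraries left at 1% protein are then only the 3 low in mitochondrial counts.

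**Figure D4:**
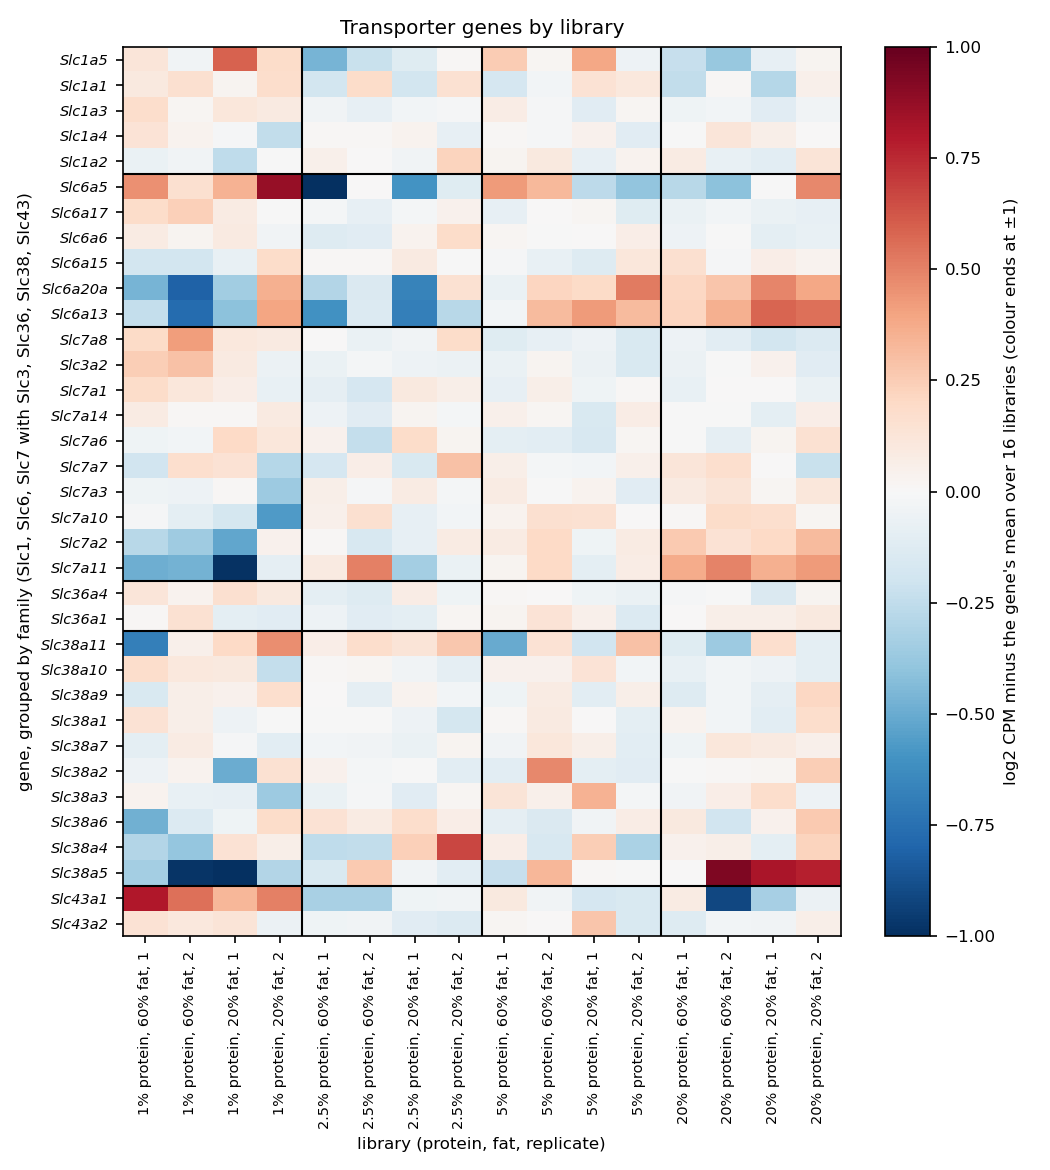
Log2 CPM of the 35 genes tested (rows, by family) minus each gene's mean over 16 libraries, with libraries in columns by protein level from 1% to 20%, then fat and replicate; red is above the gene's mean, blue below, and colours end at ±1. Slc7a11, Slc6a13 and Slc6a20a are blue in 3 of the 4 columns at 1% protein and paler or red in the fourth, replicate 2 of 20% fat.

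The intermediate diets gave few changes. At 2.5% against 20% protein, none of the 35 genes passed by edgeR and DESeq2 called 1, Slc6a13, against 0.156% of all genes. An unadjusted p under 0.05 was reached by 5 of them and by 4.81% of all genes. Of all genes 0.00601% passed. At 5% against 20% protein none passed by edgeR or DESeq2 against 0.03% of all genes called, and 3 of them had an unadjusted p under 0.05, as did 3.01% of all genes. Slc7a11 averaged 23.0 ± 5.75, 33.8 ± 8.55, 33.2 ± 2.81 and 42.6 ± 1.91 CPM at 1%, 2.5%, 5% and 20% protein (SD, n = 4 each). Slc38a5 averaged 1.19 ± 0.35, 1.88 ± 0.27, 1.94 ± 0.34 and 3.07 ± 0.81 CPM, Slc7a2 19.9 ± 3.38, 23.3 ± 1.73, 25.2 ± 1.73 and 28.1 ± 1.49 CPM, and Slc7a8 75.1 ± 8.10, 66.1 ± 5.27, 60.6 ± 1.87 and 59.8 ± 2.22 CPM over the same levels. Their means thus lay only broadly in order of protein. Slc7a11 and Slc38a5 were nearly level at 2.5% and 5%, and Slc7a8 was nearly level at 5% and 20%. These genes were picked for their change at 1% protein, and none passed by edgeR at 2.5% or 5% against 20% protein. Slc6a13 averaged 9.54 ± 3.44 CPM at 1% and 8.21 ± 1.5 CPM at 2.5% protein.

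Fitted as a straight line from 20% to 1% protein, none of the 35 genes passed by edgeR, and DESeq2 called 2, Slc7a11 and Slc38a5, against 0.553% of all genes by DESeq2. By edgeR 0.018% of all genes passed along the line. An unadjusted p under 0.05 was reached by 7 of the 35 and by 14.6% of all genes. With protein on a log2 scale, which spaces the 4 levels more evenly, 6 passed: Slc6a13, Slc6a20a, Slc7a2, Slc7a8, Slc7a11 and Slc38a5, against 7.88% of all genes. The diets with 1% and 2.5% protein share the start of their diet code, and those with 5% and 20% share another, so code and protein level cannot be told apart across that boundary. Within the first code, at 1% against 2.5% protein, none of the 35 passed by edgeR, against 2.32% of all genes. An unadjusted p under 0.05 was reached by 13 of the 35 and by 22.1% of all genes. DESeq2 called 1 there, Slc7a11, whose log2 change was -0.54 (edgeR adjusted p = 0.071), with 4.86% of all genes called by DESeq2. Without replicate 2 of 20% fat with 1% protein 11 passed, among them Slc7a11, Slc38a5, Slc7a2 and Slc7a8, with 25.1% of all genes called. That fit leaves at 1% protein only the 3 libraries low in mitochondrial counts.

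Fat content gave no call. At 60% against 20% fat, none of the 35 genes passed by edgeR or DESeq2, against 0.00601% of all genes called by edgeR. An unadjusted p under 0.05 was reached by 6 of the 35 and by 7.79% of all genes. The log2 changes ran from -0.34 (Slc38a4) to 0.17 (Slc7a11). Slc7a11 averaged 35.1 ± 8.91 CPM at 60% fat and 31.2 ± 8.52 CPM at 20% fat (SD, n = 8 each), and these SDs span all protein levels. With protein in the model its log2 change of 0.17 ± 0.11 did not pass (edgeR adjusted p = 0.64). Within 60% fat, 3 genes passed at 1% against 20% protein: Slc7a8 (log2 0.39 ± 0.09, edgeR adjusted p = 0.036) and Slc3a2 (0.31 ± 0.08, adjusted p = 0.046) rose and Slc7a11 fell (-0.92 ± 0.21, adjusted p = 0.036), with 4.25% of all genes called. Within 20% fat only Slc38a5 passed (log2 -1.47 ± 0.35, edgeR adjusted p = 0.048), with 1.78% of all genes called. The difference between the fat levels was itself tested, and no gene passed, of the 35 or of all genes (0%). An unadjusted p under 0.05 for that difference was reached by 1 of the 35, Slc3a2 (log2 0.25, edgeR adjusted p = 0.62), and by 7.84% of all genes. The changes had the same sign at both fat levels for 28 of the 35 genes (80%), against 67.4% of all genes. Slc7a11 changed by log2 -0.92 at 60% fat and -0.86 at 20% fat, and Slc7a2 by -0.52 and -0.47.

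**Figure D5:**
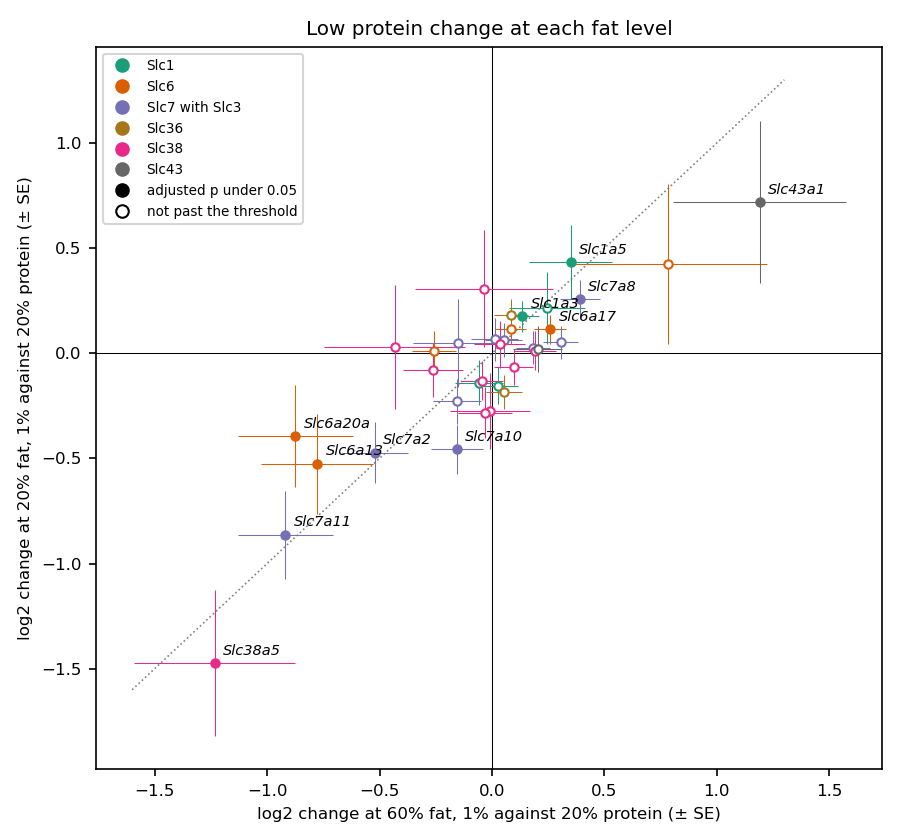
Log2 change at 1% against 20% protein within 60% fat (horizontal axis) and within 20% fat (vertical axis), each ± SE with 2 libraries a group, for the 35 genes tested; the dotted line marks equal change. Filled points are the 11 genes that passed over both fat levels together, a choice that used both axes.

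Genes that work beside these carriers were read in the same comparison of 1% against 20% protein, in which 14.3% of all genes passed. No list was tested as a whole, and nothing particular to a list is read from its counts. Apart from Slc3a2, these genes were not read in the fit without the libraries low in mitochondrial counts. Of 20 other amino acid transporters 12 could be tested, and 2 rose, 1 fell and 9 did not pass. Slc6a12, a carrier of betaine and GABA that neighbours Slc6a13 on chromosome 6 and is likewise known from the meninges, averaged 2.61 ± 0.93 CPM at 1% protein and 5.51 ± 1.15 CPM at 20% protein (SD, n = 4 each; log2 -1.07 ± 0.23, edgeR adjusted p = 0.0079). Slc3a1, the heavy chain of the cystine carrier of kidney, averaged 352.3 ± 31.4 CPM at 1% protein and 309.3 ± 10.7 CPM at 20% protein. It rose 1.14-fold (edgeR adjusted p = 0.049). Of its span 2.1% is shared with the coding gene Prepl, so this value is uncertain.

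Of 18 genes of the amino acid shortage response tested, 5 rose, 2 fell and 11 did not pass, with a median log2 change of 0.16, against 8.26% of all genes that rose and 6.01% that fell. The serine synthesis enzyme Psat1 averaged 208 ± 11.9 CPM at 1% protein and 155.4 ± 5.24 CPM at 20% protein (log2 0.42 ± 0.06, edgeR adjusted p = 0.0006). Cebpb rose 1.87-fold (edgeR adjusted p = 0.0046), but 60.4% of its span is shared with Tmem189, so this value is uncertain. Nupr1, a stress-induced chromatin protein, fell to 0.530-fold (edgeR adjusted p = 0.011). Asns, Phgdh and Atf4 rose 1.19-fold, 1.201-fold and 1.14-fold (edgeR adjusted p = 0.0195, 0.043 and 0.044). Slc7a11, a target of the same pathway by textbook knowledge, fell, and the activity of that pathway was not tested.

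Of 14 genes of the Nrf2 and glutathione list, which Slc7a11 feeds with cysteine, 3 rose and 11 did not pass, against 8.26% of all genes that rose. They were Nqo1 (1.44-fold, edgeR adjusted p = 0.018), Keap1 (1.18-fold, with 34.4% of its span shared with a non-coding gene) and Gpx4 (1.21-fold). Of 13 genes of the glutamate and GABA cycle, 2 rose, 2 fell and 9 did not pass, against 8.26% of all genes that rose and 6.01% that fell. Glul, which makes glutamine in astrocytes, averaged 2003 ± 174 CPM at 1% protein and 1543 ± 73.8 CPM at 20% protein (log2 0.37 ± 0.07, edgeR adjusted p = 0.0035). Gad2, which makes GABA, fell to 0.788-fold (edgeR adjusted p = 0.015), and the vesicular glutamate transporter Slc17a8 to 0.655-fold (edgeR adjusted p = 0.019).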

How the data were processed

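Hypothalamus was cut out and its total RNA isolated with Trizol, as the labels' protocols say. The authors deposited counts per gene, not normalised. FastQC, HISAT2 2.1.0, SAMtools 1.2, featureCounts, Subread 5.0, edgeR and the build GRCm38 are named per the submitters' processing notes. The deposited gene length equalled the annotated span, introns included, for 29 of the 37 genes, so intronic reads may be counted, and 16 overlap another gene in GENCODE M21.

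Genes were kept with filterByExpr (minimum count 10), scaled with TMM and tested by quasi-likelihood F tests in edgeR 4.0.16 under R 4.3.3, all 16 libraries in each fit, with Benjamini-Hochberg adjustment over 16646 genes at 0.05. Protein was a slope with fat and their interaction (kept at p up to 0.05, as in the series' design text), or 4 levels with fat, or 8 separate diets. CPM values are TMM-scaled, with a prior count of 2 for log2 CPM. SE is the log2 change over the root of F. DESeq2 1.42.0, other scaling and filters, a replicate block, removal of a gene length trend and leaving out libraries were alternatives. The steps were tested on simulated counts.

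The genes and lists were chosen with earlier results of these data known. Values in every library are given for genes called at 1% against 20% protein and for the most abundant and the most changed gene of each family. Slc38a2 was added after its values were seen, as were Slc1a4, Slc7a3, Slc38a1 and Slc6a5 among the genes named. From each other list up to 3 genes with the smallest p are given (1 is not reported here), and others were named after seeing their values. The comparison of 1% against 2.5% protein and the fit without the libraries low in mitochondrial counts were also added then.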

Additional observations from a re-analysis of the deposited data

Results flagged for a closer look

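In groups of 4 libraries at a protein level, 84 groups were screened over 21 genes for a library far from the other 3, and 3 stood out, where chance gives about 1 in 20. Slc38a2 reached 240 CPM in replicate 2 of 60% fat with 5% protein, against 160 to 161 CPM in the other 3 libraries at 5% protein. Slc38a2 also reached 205 CPM in replicate 2 of 20% fat with 20% protein, against 172 to 175 CPM in the others. Slc38a5 was at 1.88 CPM in replicate 1 of 60% fat with 20% protein, against 3.31 to 3.70 CPM in the others.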

How the results depend on the processing

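For 1% against 20% protein, 11 genes passed with median-ratio scaling, DESeq2 or the replicate block, 9 without the count filter, 12 with the length trend removed, 15 without the cortical-marker libraries, 4 with only the 8 libraries at those levels and 2 without the libraries low in mitochondrial counts. Of all genes, 14.3% passed by edgeR with all 16 libraries. Without the cortical-marker libraries 34.8% passed, and the libraries left at 1% protein are then those low in mitochondrial counts. Dropping the libraries low in mitochondrial counts leaves at 1% protein only a library that carried cortical markers. Where no share of all genes is given, a count shows only how far the calls depend on the processing. Leaving out each library in turn gave 4 to 15. At 1% protein, dropping replicate 1 or 2 at 60% fat left 6 or 5, and dropping replicate 1 at 20% fat left 7. At 20% protein, dropping replicate 1 or 2 left 7 or 4 at 60% fat and 6 or 5 at 20% fat. The slope gave 2 by DESeq2 and 6 on a log2 protein scale. At 2.5% against 20% protein 1 passed by DESeq2, without the filter or without the cortical-marker libraries, and 0 to 1 leaving out each library. At 1% against 2.5% protein, 1 passed by DESeq2, without the filter or with the replicate block, 9 without the cortical-marker libraries, and 0 to 11 leaving out each library.

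At 60% fat, 7 genes passed by DESeq2, 8 without the filter, 8 with the replicate block, 5 with the length trend removed, 9 without the cortical-marker libraries and 0 to 9 leaving out each library. At 20% fat the counts were 3, 4, 2, 3, 6 and 0 to 5 under the same changes. The counts at 5% against 20% protein, for fat and for the difference between fat levels were 0 in every alternative run. Shares of all genes are not given for the alternatives within a fat level, so their counts are not read as results about the carriers. The cause of these shifts was not tested. In the labels used here the replicate numbers only name libraries. Differences between the replicates of a diet correlated from -0.17 to 0.339 over 28 pairs of diets, and 7 exceeded 0.1. Some pairs of diets thus shared part of the replicate difference, and the source of that was not tested.

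Slc38a1 ranged from -0.0262 to 0.0793 leaving out libraries, with 4 of 16 values below 0. Without the libraries low in mitochondrial counts, Slc3a2 (-0.0204), Slc38a1 (-0.00702), Slc38a2 (0.11), Slc38a10 (-0.17) and Slc43a2 (-0.0518) changed sign, none past the threshold. Slc3a2 passed in 4 of 24 alternatives, Slc7a3 in 3 and Slc38a10 in 2. Depth limits Slc43a1 and Slc38a5, with 4 to 17 and 16 to 68 counts per library.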

Other observations

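Slc7a5 was not alone in being listed at 0. All 71 coding genes of the table that lie wholly inside the span of Gm20388 on chromosome 8 (119910841 to 124345722, 4434882 bases, GRCm38) had 0 counts in all 16 libraries, against 86 of 947 coding genes (9.08%) elsewhere on that chromosome, while Gm20388 itself had 53353 counts in all. The astrocyte marker Gfap, the microglial markers P2ry12 and Itgam, the meningeal marker Ogn and the choroid plexus marker Kcnj13 were also at 0 in every library, and each is covered, wholly or nearly so, by another annotated gene. The sources used here do not give how shared reads were assigned, and the cause was not tested.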
